A study of Mus musculus with 6 samples.

Results

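The Notch pathway was followed in 10 genes, namely the receptors Notch1, Notch2, Notch3 and Notch4, the ligands Jag1, Jag2 and Dll4, the coactivator Maml1 and the target genes Hes1 and Hey1. The genes were chosen by name as core members of the pathway, and 8 of the 10 were measured among the 10245 genes with a value. Dll4 and Hey1 were not analysed here. RNA was sequenced from the whole pancreas of 3 control mice and 3 Ptf1a cKO mice, with 1 library per mouse. Control mice carried Ptf1a(CreER/+) and were 4 months old, and Ptf1a cKO mice carried Ptf1a(CreER/fl) and were 5 months old, so age and genotype cannot be told apart. Each group held 1 male and 2 females. In both genotypes 1 copy of Ptf1a was replaced by CreER, a Cre recombinase that tamoxifen switches on, so the control mice kept a single working copy. All mice received 0.25 mg/g tamoxifen by gavage on each of 3 days and were sacrificed on day 14. CreER was driven by Ptf1a itself, which in the adult pancreas is active in acinar cells, so the floxed copy could be deleted there and not in duct, vessel, islet or stromal cells.

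Notch receptors are membrane proteins that bind Jagged or Delta ligands on a neighbouring cell. Binding exposes the receptor to ADAM proteases and γ-secretase, which free its intracellular part to enter the nucleus, where it joins the DNA-binding protein RBPJ and a Mastermind coactivator such as MAML1 and switches on targets such as Hes1. In the developing pancreas Notch signalling holds progenitors back from differentiating, and in the adult organ it is known in duct and centroacinar cells and in vessels. RBPJ has another partner in acinar cells: with PTF1A and an E protein it forms the PTF1 complex, in which the acinar paralogue RBPJL takes its place once the cells mature. The comparison therefore asked how the genes of a pathway that shares RBPJ with PTF1 stood after Ptf1a was deleted.

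The start-site windows of the 3 members that passed the test are shown with that of Rbpjl, which carries both kinds of element that a PTF1 complex reads. Each is a RefSeq window of the GRCm38.p6 build that runs from 250 bases before the transcription start to 50 bases after it, written 5′ to 3′ along the gene. Capitals mark TGGGAA (the core that RBPJ binds, with GTGGGAA as its longer form) and the E-boxes CAGCTG and CACCTG, each searched on both strands, so that CAGGTG in capitals is CACCTG on the other strand. GTGGGAA contains TGGGAA, and a match to the longer form is therefore a match to both. The windows lie at chr2:137116471-137116770, minus strand (Jag1), chr2:26503773-26504072, minus strand (Notch1), chr3:98013288-98013587, plus strand (Notch2) and chr2:164402944-164403243, plus strand (Rbpjl).
Jag1: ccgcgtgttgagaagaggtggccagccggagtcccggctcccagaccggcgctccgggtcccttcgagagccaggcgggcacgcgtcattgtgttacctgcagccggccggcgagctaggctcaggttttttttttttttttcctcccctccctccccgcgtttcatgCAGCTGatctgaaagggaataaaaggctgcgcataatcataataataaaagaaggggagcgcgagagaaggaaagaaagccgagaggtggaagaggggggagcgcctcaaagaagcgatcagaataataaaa
Notch1: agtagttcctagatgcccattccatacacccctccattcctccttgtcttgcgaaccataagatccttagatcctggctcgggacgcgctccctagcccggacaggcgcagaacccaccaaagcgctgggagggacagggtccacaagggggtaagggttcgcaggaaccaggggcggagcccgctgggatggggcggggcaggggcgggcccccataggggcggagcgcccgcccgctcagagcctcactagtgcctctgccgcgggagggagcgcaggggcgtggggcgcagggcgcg
Notch2: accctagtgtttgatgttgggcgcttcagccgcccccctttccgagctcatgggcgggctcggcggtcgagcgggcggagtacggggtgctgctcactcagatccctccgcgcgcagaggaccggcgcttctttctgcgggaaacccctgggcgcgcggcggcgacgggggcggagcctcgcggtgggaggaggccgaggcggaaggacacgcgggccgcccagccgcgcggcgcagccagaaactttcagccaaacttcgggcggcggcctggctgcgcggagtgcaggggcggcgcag
Rbpjl: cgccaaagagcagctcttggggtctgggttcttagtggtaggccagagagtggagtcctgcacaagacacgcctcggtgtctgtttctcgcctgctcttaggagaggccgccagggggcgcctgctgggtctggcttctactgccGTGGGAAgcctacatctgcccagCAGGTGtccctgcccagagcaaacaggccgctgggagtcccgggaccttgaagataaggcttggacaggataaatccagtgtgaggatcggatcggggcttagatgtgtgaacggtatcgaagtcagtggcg
In Rbpjl, GTGGGAA began 105 bases before the start and the E-box 82 bases before it. The Jag1 window held CAGCTG, also 82 bases before the start, and the Notch1 and Notch2 windows held none of these letters. A window was found for 7 of the 8 measured members, all but Hes1. None of the 7 held TGGGAA, where 25.6% of all 32851 windows did, and 1 held CAGCTG, where 16.3% did. GTGGGAA stood in 6.38% and CACCTG in 20.2% of all windows and in 0 of the 7. These matches describe the letters of the windows only.

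Values are read counts that the authors normalized between libraries, and each gene reached at least 27.6 of them in 1 or more libraries. The deletion was visible in Ptf1a itself, which stood at 566.4, 600.7 and 651.6 normalized counts in the control mice and at 19.8, 70.1 and 10.2 in Ptf1a cKO 1, 2 and 3. Ptf1a cKO 2 thus kept 11.6% of the control mean, against 3.27% and 1.69% in the others. Transcripts of 35 digestive enzymes and other secreted acinar proteins made up between 83.6% and 86.1% of the summed gene values in control libraries and between 39.5% and 66.2% in Ptf1a cKO libraries. The scale follows most genes and not the total: over all genes the log2 fold changes had a median of 0.036, which would be 1.48 if every library were given the same total. Directions below are on the authors' scale, relative to the median gene. The groups were compared by limma on log2 values, with Benjamini-Hochberg adjustment over all 10245 genes and a threshold of 0.05 on the adjusted p. Of all genes, 33.9% passed, 17.1% being higher and 16.8% lower in Ptf1a cKO, and in 50.8% the 2 groups did not overlap. With 3 mice against 3, the smallest two-sided p of an exact permutation test is 0.10.

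Among the receptors, Notch1 was lower and Notch2 was higher in Ptf1a cKO pancreas, relative to the median gene. Notch1 stood at 308.2, 363.0 and 341.5 normalized counts in the control mice and at 157.4, 262.2 and 228.8 in Ptf1a cKO mice. All 3 Ptf1a cKO values lay under all 3 control values, and Ptf1a cKO 2, the mouse with the most Ptf1a left, was the highest of its group. The mean fell from 337.6 ± 27.6 to 216.1 ± 53.5 (SD, n = 3 per group), a log2 fold change of -0.66 (SE 0.18, 95% interval -1.07 to -0.26, limma adjusted p = 0.0206). With every library given the same total, the Notch1 value was 0.82 and so turned sign, and relative to the median gene under that scaling it was -0.66. In whole tissue, fewer cells of a type and less RNA per cell cannot be told apart.

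Notch2, a paralogue of Notch1 that is known in duct and liver progenitor biology, stood at 90.1, 74.6 and 66.7 normalized counts in control mice and at 103.5, 111.3 and 194.8 in Ptf1a cKO mice. The groups did not overlap, and Ptf1a cKO 3, with the least Ptf1a, stood far above the others, while Ptf1a cKO 1 lay nearest to control. The mean rose from 77.1 ± 11.9 to 136.5 ± 50.6 (SD, n = 3 per group), with a log2 fold change of 0.75 (SE 0.23, 95% interval 0.23 to 1.27, limma adjusted p = 0.0339). The call was less stable than the direction. It was lost without Ptf1a cKO 3 (log2 fold change 0.47, adjusted p = 0.0795) and without control 1, 2 or 3 (adjusted p = 0.0505, 0.0908 and 0.104, limma), and also without a mean-variance trend (adjusted p = 0.0568) and with the same total without digestive enzymes (0.58, adjusted p = 0.0789). For Notch1 the call was lost without control 2 or 3 (adjusted p = 0.0736 and 0.0564, limma).

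Notch3 and Notch4 did not pass the test. Notch3, the receptor best known from vascular smooth muscle and pericytes, stood at 50.7, 36.4 and 46.8 normalized counts in control mice and at 47.2, 56.8 and 74.7 in Ptf1a cKO mice. The lowest Ptf1a cKO value fell inside the control range, and the log2 fold change was 0.38 (95% interval -0.10 to 0.86, limma adjusted p = 0.191). Notch4, the receptor known from endothelial cells, stood at 83.3, 78.1 and 81.6 in control mice and at 65.5, 53.5 and 64.5 in Ptf1a cKO mice. Here Ptf1a cKO 2, with the most Ptf1a left, lay furthest from control. The control values were close together and all above the Ptf1a cKO values, but the log2 fold change of -0.39 (95% interval -0.71 to -0.07) had an adjusted p of 0.0582 (limma). Notch4 passed on another scaling of the libraries, the median of ratios (adjusted p = 0.0452), and without a mean-variance trend (adjusted p = 0.0494, limma in both).

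**Figure D1:**
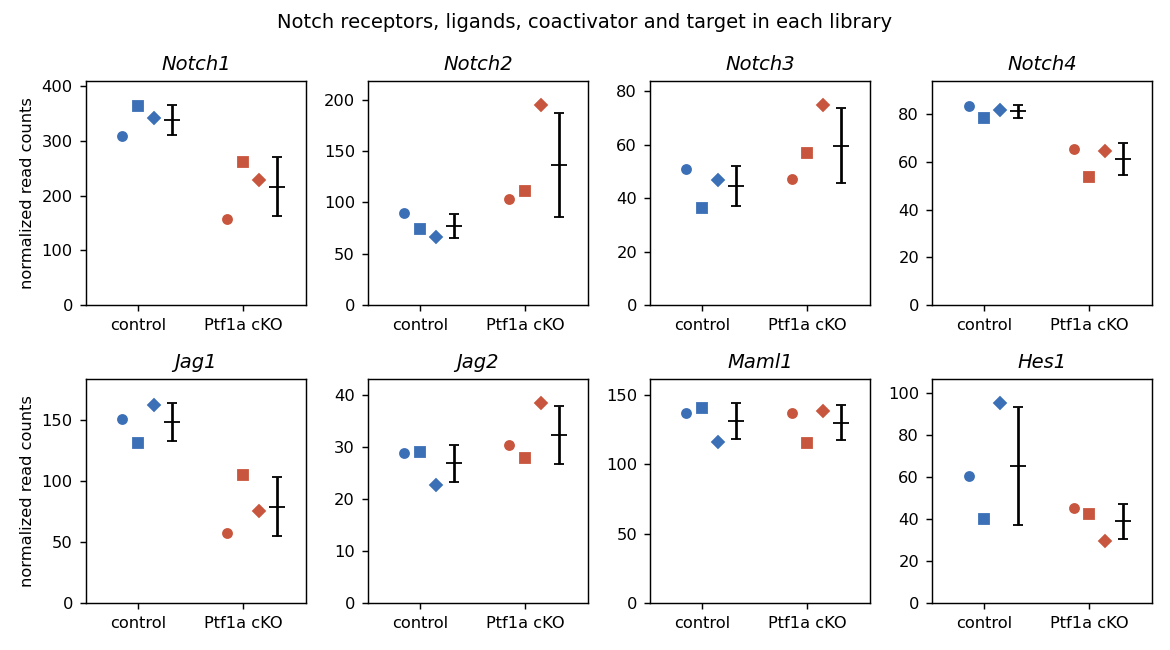
Normalized read counts (y axis, linear, from 0) of the 8 measured Notch pathway genes in each library, for control and Ptf1a cKO mice. Circles, squares and diamonds are mice 1, 2 and 3 of each group, and the black bar and whiskers are the mean and SD of 3. The groups are apart for Notch1, Notch2, Notch4 and Jag1 and overlap for the other 4.

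The 4 receptors were also compared within each library, where no scaling between libraries can change the result. This comparison was chosen after the data were seen. For it, counts were divided by the length of each gene's exons. Per length, the ratio of Notch2 to Notch1 was 0.264, 0.186 and 0.177 in control mice and 0.594, 0.383 and 0.770 in Ptf1a cKO mice. The ratio was higher in 3 of 3 Ptf1a cKO mice than in any control mouse, by 1.45 on the log2 scale (exact permutation p = 0.10, the smallest possible). Since Notch2 was higher and Notch1 lower without overlap, this ratio had to separate the groups and is no further test. The ratio of Notch3 to Notch1 was higher by 1.08 on the log2 scale and that of Notch3 to Notch4 by 0.81, again without overlap (exact permutation p = 0.10 for each). Notch3 itself overlapped, and the lower values of Notch1 and Notch4 are part of these differences.

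Notch1 was the most abundant receptor per length in each of the 6 libraries, but its share of the summed level of the 4 differed between the groups. It made up 54.1%, 62.0% and 59.4% of that sum in control mice and 39.2%, 51.7% and 39.0% in Ptf1a cKO mice. Notch2 went from 14.3%, 11.5% and 10.5% to 23.3%, 19.8% and 30.0%, so that it took more than Notch4 in Ptf1a cKO 2 and 3 and less than Notch4 in every control library. Notch3 took 10.5%, 7.35% and 9.65% of the sum in control and 13.9%, 13.3% and 15.1% in Ptf1a cKO mice. The shares of Notch1, Notch2 and Notch3 did not overlap between the groups, while those of Notch4 did, at 21.1%, 19.2% and 20.4% against 23.5%, 15.2% and 15.9%. The shares of a library add up to the whole, so a lower Notch1 share is made up by the other receptors. They are therefore not separate results, and the Notch3 counts themselves overlapped. The sum itself stood at 60.0, 61.8 and 60.6 normalized counts per kb of exon in control mice and at 42.3, 53.4 and 61.8 in Ptf1a cKO mice.

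**Figure D2:**
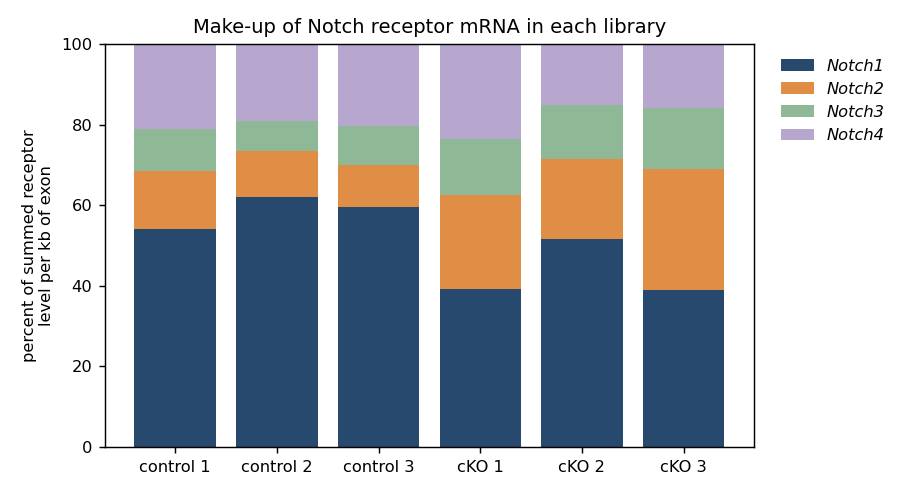
Share of each receptor (y axis, percent of the summed level per kb of exon of Notch1, Notch2, Notch3 and Notch4) in each of the 6 libraries (x axis). Notch1 takes 54.1% to 62.0% in control and 39.0% to 51.7% in Ptf1a cKO libraries, and Notch2 10.5% to 14.3% and 19.8% to 30.0%.

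The ligand Jag1, a membrane protein that activates Notch receptors on adjoining cells, was lower in Ptf1a cKO pancreas. It stood at 151.6, 131.8 and 162.9 normalized counts in control mice and at 57.1, 104.8 and 75.7 in Ptf1a cKO mice. The groups did not overlap, and the library with the most Ptf1a left, Ptf1a cKO 2, kept 70.5% of the control mean against 38.4% and 50.9% in the others. The mean fell from 148.8 ± 15.8 to 79.2 ± 24.1 (SD, n = 3 per group), a log2 fold change of -0.92 (SE 0.20, 95% interval -1.38 to -0.46, limma adjusted p = 0.00853). Jag1 was the only member that passed in all 6 fits with 1 library left out. With every library given the same total its value was 0.53, and relative to the median gene under that scaling it was -0.95.

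Jag2, the other Jagged ligand, stood at 28.9, 29.1 and 22.7 normalized counts in control mice and at 30.4, 28.0 and 38.6 in Ptf1a cKO mice. These values overlapped and were among the lowest in the table, and the log2 fold change was 0.23 (95% interval -0.31 to 0.78, limma adjusted p = 0.481). Within a library, the ratio of Jag2 to Jag1 per length was 0.210, 0.242 and 0.153 in control mice and 0.586, 0.294 and 0.560 in Ptf1a cKO mice. It was higher by 1.21 on the log2 scale without overlap, while Jag1 remained the more abundant of the pair in every library (exact permutation p = 0.10). The lower Jag1 given above is part of this difference. The ratio of Notch2 to Jag1 went from 0.317, 0.303 and 0.219 to 0.969, 0.567 and 1.38 per length. Its difference was 1.72 on the log2 scale, and Notch2 exceeded Jag1 only in Ptf1a cKO 3. With Notch2 higher and Jag1 lower without overlap, the ratio of Notch2 to Jag1 had to separate the groups.

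On the nuclear side, Maml1 and Rbpj did not pass the test, while Rbpjl was lower. Maml1, the coactivator that bridges Notch and RBPJ to histone acetyltransferases, stood at 136.6, 140.7 and 116.0 normalized counts in control mice and at 136.6, 115.2 and 138.2 in Ptf1a cKO mice. Its log2 fold change was -0.01 (95% interval -0.31 to 0.29, limma adjusted p = 0.953), and the sign of so small a value turned with the scaling or the library left out. Rbpj, the DNA-binding protein that Notch and immature PTF1 share, stood at 83.3, 84.9 and 72.5 in control mice and at 72.1, 62.5 and 66.6 in Ptf1a cKO mice. The Rbpj groups were just apart, with a log2 fold change of -0.25 (95% interval -0.56 to 0.06, limma adjusted p = 0.191).

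Rbpjl, the acinar paralogue whose window is shown above, went from 8430, 8194 and 7792 normalized counts to 1161, 3868 and 1029. Ptf1a cKO 2, with the most Ptf1a, kept 47.5% of the control mean, against 14.3% and 12.7% in the others. The log2 fold change was -2.29 (SE 0.42, limma adjusted p = 0.00356). Per length, Rbpjl exceeded Rbpj 286-fold, 273-fold and 304-fold in control libraries and 45.6-fold, 175-fold and 43.7-fold in Ptf1a cKO libraries. The balance of the paralogues thus moved towards Rbpj in each Ptf1a cKO library, although Rbpjl stayed in excess. Of the E proteins that pair with PTF1A, Tcf12 was higher (log2 fold change 0.74, adjusted p = 0.0031), whereas Tcf3 stood at 121.6 ± 17.0 in control and 148.8 ± 20.2 in Ptf1a cKO mice (SD, n = 3 per group, adjusted p = 0.166, limma).

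Hes1, a transcriptional repressor and the most used readout of Notch activity in the pancreas, stood at 60.2, 40.1 and 95.3 normalized counts in control mice and at 45.2, 42.2 and 29.5 in Ptf1a cKO mice. The control values were widely spread and their lowest fell inside the Ptf1a cKO range. The means were 65.2 ± 27.9 and 39.0 ± 8.34 (SD, n = 3 per group), and the log2 fold change of -0.64 (95% interval -1.30 to 0.03) had a limma adjusted p of 0.125. Without control 2, the low control library, the value was -0.92 with an adjusted p of 0.0429 (limma), and without control 3, the high one, it was -0.33 with an adjusted p of 0.372.

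Other genes known as Notch targets in some tissues were listed beside Hes1, and 5 of the 8 on the list were measured. Relative to the median gene, 4 passed the threshold as lower and 1 as higher, where 16.8% and 17.1% of all genes did. Heyl, a Hey family repressor known from vascular smooth muscle, stood at 102.0, 101.4 and 115.6 normalized counts in control mice and at 65.2, 82.8 and 70.0 in Ptf1a cKO mice. All Ptf1a cKO values lay under the control values, with a log2 fold change of -0.53 (SE 0.14, limma adjusted p = 0.0174). The Heyl call was lost without Ptf1a cKO 1 or 3 (limma adjusted p = 0.0614 and 0.0543). Hes6, a Hes family member that can oppose Hes1, fell by 0.40 on the log2 scale (limma adjusted p = 0.0415), but only 1 of the 6 fits with a library left out kept it past the threshold. With every library given the same total, the Heyl and Hes6 values turned to 0.91 and 1.06.

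The remaining 3 targets answer to many other signals as well. Myc, a growth regulator, went from a mean of 326.0 ± 61.6 to 102.0 ± 30.8 normalized counts (log2 fold change -1.67, adjusted p = 9.07e-04). The cyclin gene Ccnd1 went from 173.4 ± 23.4 to 76.1 ± 16.9 (log2 fold change -1.17, adjusted p = 0.00148, SD and n = 3 per group for both). Sox9, a transcription factor of duct and progenitor cells, stood at 130.8, 136.1 and 108.9 in control mice and at 625.0, 633.3 and 516.0 in Ptf1a cKO mice. Its groups were far apart, with a log2 fold change of 2.21 (SE 0.13, adjusted p = 2.00e-05, limma for all 3 genes), and the Sox9 value of Ptf1a cKO 2 lay close to that of Ptf1a cKO 1.

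**Figure D3:**
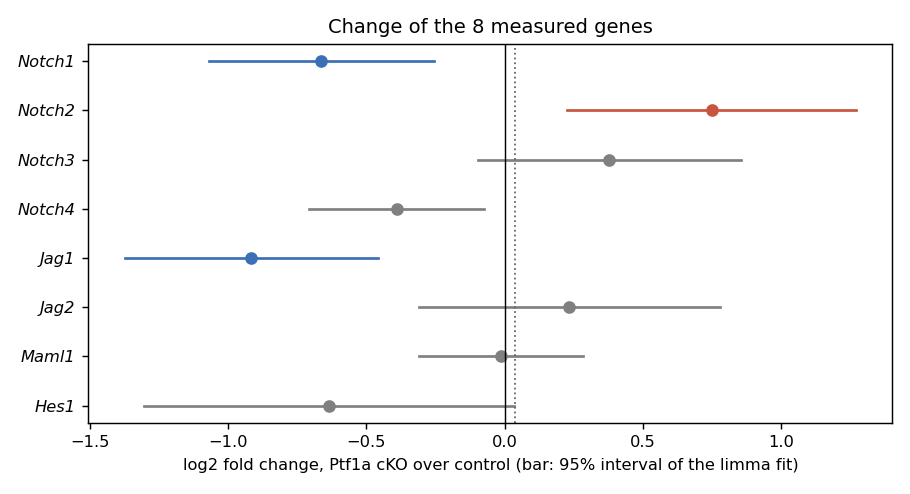
Log2 fold change of Ptf1a cKO over control (x axis) for the 8 measured genes on the authors' scale, with the 95% interval of the limma fit as bars. Blue and red mark genes lower and higher past the threshold, grey the others, and the dotted line is the median of all genes at 0.036. With equal library totals that median becomes 1.48 and Notch1, Notch4, Jag1, Maml1 and Hes1 change sign.

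In all, 3 of the 8 members passed the threshold (37.5%), against 33.9% of all genes. Notch2 was higher (1 of 8, against 17.1%), and Notch1 and Jag1 were lower (2 of 8, against 16.8%). The groups did not overlap for 4 of the 8 (50.0%), against 50.8% of all genes. The share of members that differed was thus near the background. The log2 fold changes of the 8 had a median of -0.20, beside 0.036 over all genes. With every library given the same total, 7 members passed, all 7 higher and 0 lower, and with the same total without the digestive enzymes 0 were higher and 3 lower (Notch1, Notch4 and Jag1).

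Levels of different genes were compared per kb of exon. In control pancreas Hes1 was first with 44.4 ± 19.0 normalized counts per kb, followed by Notch1 with 35.6 ± 2.91, Jag1 with 26.5 ± 2.81 and Maml1 with 23.7 ± 2.39. Notch4 followed with 12.3 ± 0.406, Notch2 with 7.35 ± 1.13, Notch3 with 5.57 ± 0.927 and Jag2 with 5.27 ± 0.710 (SD, n = 3). The neighbours Hes1 and Notch1, Jag1 and Maml1, and Notch3 and Jag2 overlapped in range, and the other neighbours did not. In Ptf1a cKO pancreas the order was Hes1 (26.5 ± 5.68), Maml1 (23.5 ± 2.33), Notch1 (22.8 ± 5.64), Jag1 (14.1 ± 4.29), Notch2 (13.0 ± 4.82), Notch4 (9.28 ± 1.01), Notch3 (7.43 ± 1.74) and Jag2 (6.33 ± 1.09, SD, n = 3, normalized counts per kb). There every pair of neighbours overlapped. Jag1 lay above Notch2 in every control library by this measure, and their ranges overlapped in Ptf1a cKO.

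Markers of the other cell types of the pancreas were measured beside the members. Their counts are of genes past the threshold, where 17.1% of all genes were higher and 16.8% lower. Of 12 measured endothelial genes, 1 was higher (Vwf, log2 fold change 0.84, limma adjusted p = 0.0211) and 0 lower, and their sum ran from 1245 to 1530 normalized counts in control and from 1258 to 1561 in Ptf1a cKO mice. Pecam1, a junction protein of endothelial cells, stood at 232.0 ± 17.9 in control and 217.4 ± 39.3 in Ptf1a cKO mice (SD, n = 3 per group). Set against this sum, Notch4 was 5.58%, 6.27% and 5.33% in control libraries and 5.04%, 4.25% and 4.13% in Ptf1a cKO libraries, a log2 difference of -0.36 without overlap (exact permutation p = 0.10). Jag1, which endothelial cells also make, went from 10.2%, 10.6% and 10.7% relative to that sum to 4.39%, 8.33% and 4.85%, again without overlap.

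Of 9 measured genes of smooth muscle and pericytes, 4 were higher (Acta2, Myh11, Des and Myl9) and 0 lower, with sums of 410 to 481 normalized counts in control and 521 to 874 in Ptf1a cKO mice. The other 5 did not pass. Their log2 fold changes were 0.85 (Tagln), -0.10 (Pdgfrb), 0.23 (Rgs5), 0.12 (Mcam) and 0.08 (Abcc9). The study stained α-smooth muscle actin, the product of Acta2, to mark activated stellate cells, so the sum may not be of vessel walls alone. The contractile gene Myl9 went from 37.9 ± 2.67 to 80.2 ± 22.6 (SD, n = 3 per group). Neither Notch3 nor Heyl was part of this sum, against which each was set as a ratio. Notch3 stood at 12.4%, 7.56% and 9.93% of the level of the mural sum in control and at 6.02%, 10.9% and 8.55% in Ptf1a cKO mice, which overlapped (exact permutation p = 0.50). The ratio of Heyl to the mural sum was 24.9%, 21.1% and 24.5% in control and 8.32%, 15.9% and 8.003% in Ptf1a cKO mice. The Heyl ratios did not overlap, with a log2 difference of -1.20 (exact permutation p = 0.10). Heyl was lower and the sum higher without overlap, so these ratios had to separate the groups. The rise of the sum is part of their difference.

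Duct, fibroblast and leukocyte markers were higher in Ptf1a cKO libraries, beside the higher Notch2. For duct cells, 6 of 10 measured markers were higher and 0 lower, and the sum went from between 3900 and 4762 to between 25540 and 110400 normalized counts, most of it Spp1, a secreted phosphoprotein that macrophages and injured epithelium also make. Krt19, a keratin of duct cells, stood at 241.2 ± 34.3 in control and 242.8 ± 60.8 in Ptf1a cKO mice (SD, n = 3 per group). For fibroblasts 8 of 9 markers were higher (sums 3087 to 3597 and 6044 to 10850), and for leukocytes 6 of 9 (sums 452 to 761 and 1161 to 2541). None of the fibroblast or leukocyte markers was lower. Of 10 endocrine markers 0 passed, with sums of 11720 to 43340 and 5981 to 34070. No marker on these lists was at 0 in all 6 libraries. The part of these cell types in the values of Notch2 and the other members was not tested.

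The rest of the pathway was described by 70 further genes listed by role, of which 55 were measured. Of these 55, 28 passed the threshold (50.9%), against 33.9% of all genes, with 13 higher and 15 lower, and in 34 (61.8%) the groups did not overlap, against 50.8%. Their median log2 fold change was 0.055. With every library given the same total, 51 passed, with 50 higher and 1 lower, and with the same total without the digestive enzymes 8 were higher and 17 lower. The counts by role below are of genes past the threshold on the authors' scale, where 17.1% of all genes were higher and 16.8% lower.

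In the group that cuts the receptor, 2 of 8 measured genes were higher and 3 lower. Furin, the convertase that cleaves Notch and many other precursors on their way to the surface, stood at 1039, 1053 and 1043 normalized counts in control mice and at 5643, 3502 and 5243 in Ptf1a cKO mice. The groups were far apart, with Ptf1a cKO 2 the nearest to control, and the log2 fold change was 2.16 (SE 0.18, limma adjusted p = 9.09e-05). Ncstn, the γ-secretase subunit nicastrin, was higher by 0.65 on the log2 scale (limma adjusted p = 0.0103). The γ-secretase genes Psen2, a catalytic subunit, and Aph1c were lower, by log2 fold changes of -0.52 and -1.0004, as was the protease gene Adam10, with -0.51 (limma adjusted p = 0.0204, 0.00603 and 0.014). Of 5 measured genes that act on ligand uptake, 1 passed, the ubiquitin ligase gene Mib2 with 0.47 (limma adjusted p = 0.0359).

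Of 7 measured enzymes that add sugars to the receptor, 3 were lower and 0 higher. Lfng, the Fringe enzyme that changes which ligands Notch answers to, stood at 294.3, 314.3 and 342.2 normalized counts in control mice and at 124.5, 127.6 and 120.5 in Ptf1a cKO mice. The 3 Ptf1a cKO values lay close together, far under the control values, and Ptf1a cKO 2 did not stand out (log2 fold change -1.33, SE 0.11, limma adjusted p = 9.09e-05). The other Fringe measured, Rfng, was lower with a log2 fold change of -0.48 and the fucosyltransferase gene Pofut1 with -0.37 (limma adjusted p = 0.0219 and 0.0462).

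Among 9 measured Numb, Deltex and ubiquitin ligase genes, which act on receptor traffic and turnover, 4 were higher and 2 lower. The Deltex family, cytoplasmic ubiquitin ligases that bind Notch, went both ways. Dtx1 stood at 514.1, 440.4 and 615.3 normalized counts in control mice and at 93.5, 155.7 and 99.7 in Ptf1a cKO mice (log2 fold change -2.16, SE 0.20, limma adjusted p = 1.60e-04). Dtx3 stood at 118.1, 105.0 and 124.6 in control and at 398.2, 313.6 and 352.1 in Ptf1a cKO mice (1.58, limma adjusted p = 8.87e-05). Neither pair of groups overlapped. Dtx4 was higher as well, with 1.55 (limma adjusted p = 1.75e-04), and Dtx2 stood at 64.0 ± 14.7 in control and 70.1 ± 8.68 in Ptf1a cKO mice (SD, n = 3 per group). Fbxw7, which marks the freed Notch fragment for destruction, was lower, with means of 158.5 ± 17.8 and 86.7 ± 3.83 (log2 fold change -0.84, limma adjusted p = 0.00136).

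In the nucleus, 1 of the 9 measured genes for Rbpj and coactivators passed, the acetyltransferase gene Kat2a, which was lower (log2 fold change -0.60, limma adjusted p = 0.0115). Of 12 measured corepressor genes, 5 were higher and 2 lower. The higher ones included Tle4, a Groucho corepressor that Hes proteins recruit, which stood at 46.6, 66.1 and 57.1 normalized counts in control mice and at 163.8, 138.6 and 201.6 in Ptf1a cKO mice (log2 fold change 1.51, SE 0.18, limma adjusted p = 4.24e-04). The groups did not overlap for Tle4, nor for its relatives Tle2 and Tle3, which were higher by 0.66 and 0.59 on the log2 scale (limma adjusted p = 0.00221 and 0.0167). Tle1 stood at 137.3 ± 12.5 in control and 170.0 ± 9.33 in Ptf1a cKO mice (SD, n = 3 per group, limma adjusted p = 0.0756). Of the lower ones, Ctbp1 had a log2 fold change of -0.33 (limma adjusted p = 0.0314).

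**Figure D4:**
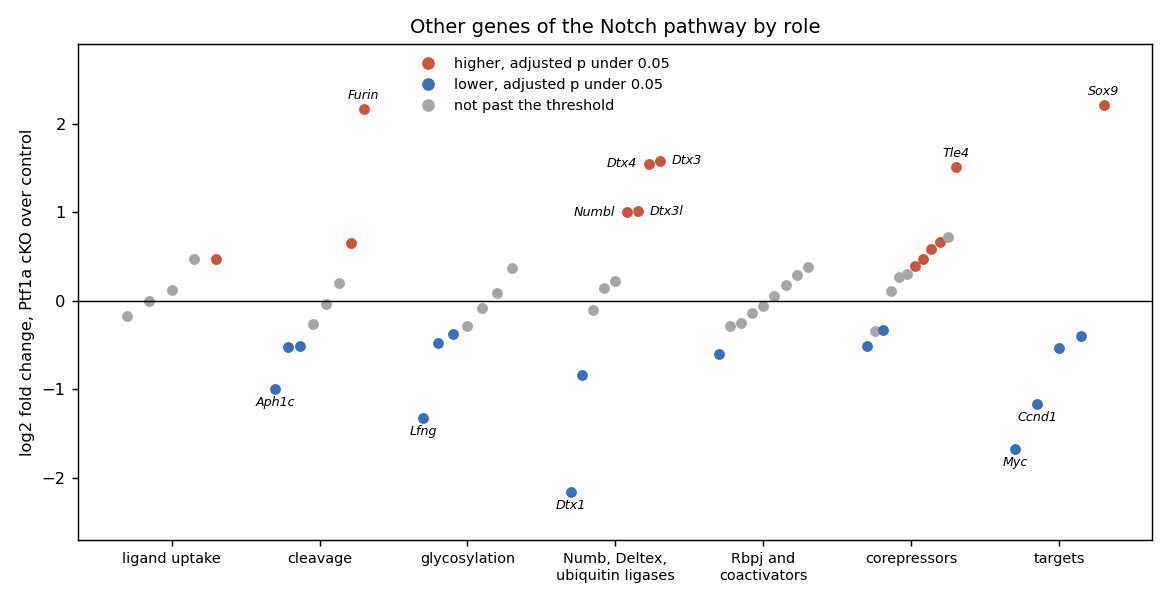
Log2 fold change of Ptf1a cKO over control (y axis) for the 55 other measured Notch pathway genes, grouped by role (x axis) and ordered by value within a role. Red and blue points passed the threshold, 13 higher and 15 lower on the authors' scale (50 higher and 1 lower with equal library totals), and grey points did not. Furin, Sox9, Dtx3, Dtx4 and Tle4 stand highest, and Dtx1, Myc and Lfng lowest.

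Genes whose profile over the 6 libraries was most like that of the 3 members past the threshold were found by the root mean square difference of log2 levels, each gene centred on its own mean. For Jag1 these were Smad6 (0.042), D930020B18Rik (0.0744) and Cebpb (0.0889). For Notch1 they were Zfp64 (0.0872), Rcor3 (0.0987) and Tfap4 (0.0997). For Notch2 they were Inf2 (0.107), Dopey2 (0.110) and Glb1 (0.117). The nearest genes had log2 fold changes from -0.96 (Cebpb) to 0.70 (Inf2). They were picked for a like profile over the same libraries, so fold changes near those of the members had to follow. The libraries are shared between all these genes, so the likeness is a description.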

How the data were processed

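RNA of the whole pancreas was sequenced from 3 control and 3 Ptf1a cKO mice (50-nucleotide single-end reads), and groups were taken from the sample titles. The submitters' processing notes name TopHat2 2.0.4, Bowtie 0.12.7.0, SAMtools 0.1.18.0, HTSeq 0.6.0 and the build mm9. The authors used edgeR with TMM normalization, per the study's methods. The annotation, the filter on low values and whether counting used strand are not given in the sources used here. The authors deposited 1 signal per gene and library, a normalized read count that is never negative, with decimals and no common step, so whole reads could not be recovered, the values do not carry the libraries' depth and tests made for counts were not run. Entries naming no gene (3, holding 75.7% to 82.6% of the normalized counts of a library) were left out. Symbols were turned into dates for 17 genes.

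Values were divided by 13.6393, the same for all libraries, and log2(value + 0.25) was taken, a pseudocount of 3.41 normalized counts. All fold changes of genes are differences on that log2(value + pseudocount) scale, which makes those of low genes too small. Log2 differences of ratios within a library were taken without a pseudocount. A mean of at least 0.25 after division was required, which removed 0 genes. limma 3.58.1 in R 4.3.3 (lmFit, eBayes with a trend, two-sided, Benjamini-Hochberg) compared the groups, without covariates, and was checked on simulated data. Python 3.11.15 with pandas 2.3.3 was used for the rest. Exon lengths are the union of exons in GENCODE M21 basic (GRCm38), found for 10164 genes with 1 length. Since mm9 and GRCm38 differ, the only positions given are those of the RefSeq start-site windows, in GRCm38.p6. Xxylt1 was matched under an older symbol. Exact permutation tests were two-sided. The mice are separate animals, so p-values measure the spread between mice.

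The members, gene lists and tests were chosen with earlier results of these data known. Named genes were the members, Ptf1a, Rbpj, Rbpjl and its partners, up to 4 genes past the threshold per role, at most 3 markers per cell type by level per length, and the 3 nearest profiles of the 3 members with the largest change past the threshold. Vwf, Myh11, Des, Krt19, Dtx2, Tle1, Tcf3 and Tcf12, and genes outside these limits, were named after their values were seen. Alternatives were other pseudocounts (0.05 and 1), no filter or a mean of at least 5, 4 other scalings, no trend or robust estimation, sex as a covariate, a replicate block, each library left out and a threshold of 0.01.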

Additional observations from a re-analysis of the deposited data

How the results depend on the processing

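Members past the threshold numbered 3, and 55 measured genes of the wider pathway gave 28. With an adjusted p under 0.01 the counts were 1 and 12, and with the same total for every library 7 and 51. That scaling turned the sign of Notch1 (0.82), Notch4 (1.04), Jag1 (0.53), Maml1 (1.45), Hes1 (0.76), Rbpj (1.18), Heyl (0.91) and Hes6 (1.06), since it raises the median gene to 1.48. Relative to that median, Notch1 was -0.66, Notch2 0.71, Notch4 -0.44, Jag1 -0.95 and Hes1 -0.72. Maml1, near zero, also turned sign with the same 75th percentile (0.033) and without control 1 (0.019), control 2 (0.040) or Ptf1a cKO 2 (0.071), in a range of -0.095 to 0.071. Leaving out 1 library gave 1 to 3 members, with 1 (Jag1) without control 3, and 16 to 26 wider pathway genes, with 18 without control 2 or Ptf1a cKO 1 and 16 without Ptf1a cKO 3. Fewer libraries were then tested, and 1 group held a pair of mice. With a mean of at least 5 after division, 5 members were tested. Models of read counts were not run, since reads could not be recovered.

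Replicate numbers are shared between the groups. Same-numbered libraries correlated weakly after group means were removed (0.039, 0.134 and 0.144 for numbers 1, 2 and 3). Ptf1a cKO 2 and 3 correlated best with the control of their own number, and Ptf1a cKO 1 with control 2 (0.083). Whether a shared number marks a pairing is not given in the sources used here, and correlations this weak cannot decide it. A replicate block gave 3 members and 24 wider pathway genes (13 higher, 11 lower), and 3525 genes in all. Among the members it changed no call, and Hes6 was no longer past the threshold (adjusted p = 0.0627).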
